A study of Mus musculus with 6 samples.

Results

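RNA polymerase subunit genes were compared between 4T-1 cells carrying hyperactive EZH2 and their vector controls. The subunits were taken as the protein-coding genes of the count table whose symbol begins with Polr1, Polr2 or Polr3 followed by a subunit letter from a to m, which gave 28 of the 40205 genes listed. All 28 passed the filter on low counts, as did 21043 genes in all. 3 Pol I subunits stood in the table under older symbols (Twistnb, Cd3eap and Znrd1, now Polr1f, Polr1g and Polr1h) and 1 Pol III subunit, Crcp, has a name outside the rule, and these are given beside the 28, not among them.

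4T-1 is a mouse mammary carcinoma line used as a model of triple-negative breast cancer. The Y641-F group was transduced with EZH2-Y641-F, a mutant form of the methyltransferase EZH2 that raises trimethylation of histone H3 lysine 27, a mark best known from repressed genes. The Control group was transduced with the empty MSCV retroviral vector. Each group has 3 libraries of total RNA from cultured cells, described as separate batches of stable cells, which are named Y641-F 1 to 3 and Control 1 to 3 here. Whether the batches came from separate transductions is not stated, so p-values measure only the spread between these batches. One passage of the methods gives puromycin as the selection drug for all lines and another gives hygromycin for Y641-F cells and puromycin for Control cells. If the drugs differed, drug and mutant cannot be told apart.

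RNA polymerase I transcribes the large ribosomal RNA precursor in the nucleolus. RNA polymerase II transcribes messenger RNAs, and RNA polymerase III transcribes transfer RNAs, 5S ribosomal RNA and other short RNAs. Each enzyme has its own pair of large catalytic subunits and its own stalk and accessory subunits, whereas a few small subunits are built into all of them and a pair, Polr1c and Polr1d, into Pol I and Pol III. Growing cells and tumor cells need much Pol I and Pol III activity, and MYC is known to promote transcription by both.

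The 6 libraries held 32509268 to 36429035 counts. Log counts correlated at 0.983 to 0.987 within groups and at 0.968 to 0.974 between groups (Pearson's r across genes, which are not independent). Ezh2 measured 119, 102 and 122.6 CPM (counts relative to library size, scaled by TMM factors) in Y641-F cells, against 99.6, 121 and 110 CPM in Control cells. These groups overlapped, so Ezh2 reads do not tell the groups apart (log2 fold change 0.06, adjusted p = 0.730, from edgeR's quasi-likelihood F test and adjusted over all genes tested after Benjamini and Hochberg). Whether reads of the construct could be counted as mouse Ezh2 was not determined. Epithelial marker genes summed to 3207 to 3665 CPM in Y641-F cells and 2936 to 2981 CPM in Control cells. Of these 7 markers 2 were called higher and 5 were not called. The 2 were Krt14 (mean 339 CPM in Y641-F against 113 CPM in Control cells) and Cldn7 (66.9 against 30.5 CPM). That share (28.6%) was near the 26.4% of protein-coding genes with a mean count at least that of the lowest subunit. Haematopoietic markers summed to at most 9.52 CPM in Y641-F and 12.8 CPM in Control libraries, and endothelial and fibroblast markers to at most 38.1 and 48.7 CPM. Most of the latter sum was Pdgfra (mean 28.6 CPM in Y641-F and 38.4 CPM in Control cells).

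Most polymerase subunit mRNAs were higher in Y641-F cells. 18 of the 28 rose, 1 fell (Polr3gl) and 9 were not called, at an adjusted p under 0.05 in edgeR's quasi-likelihood test. Over all genes tested 31.6% were called, 15.6% higher and 16% lower, so 64.3% of the subunits rose against 15.6% of all genes. Subunit genes are well expressed, and among the 9458 protein-coding genes with a mean count at least that of the lowest subunit (347.3) 26.4% were called higher and 21.3% lower. The median log2 fold change was 0.47 over the 28 subunits, -0.01 over all genes and 0.04 over those protein-coding genes. In 21 subunits every Y641-F library lay above every Control library and in 1 every Y641-F library lay below, while 21.2% of all genes separated upward and 23.3% downward. In bulk samples a change in the share of cells that express a gene and a change in RNA per cell cannot be told apart.

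**Figure D1:**
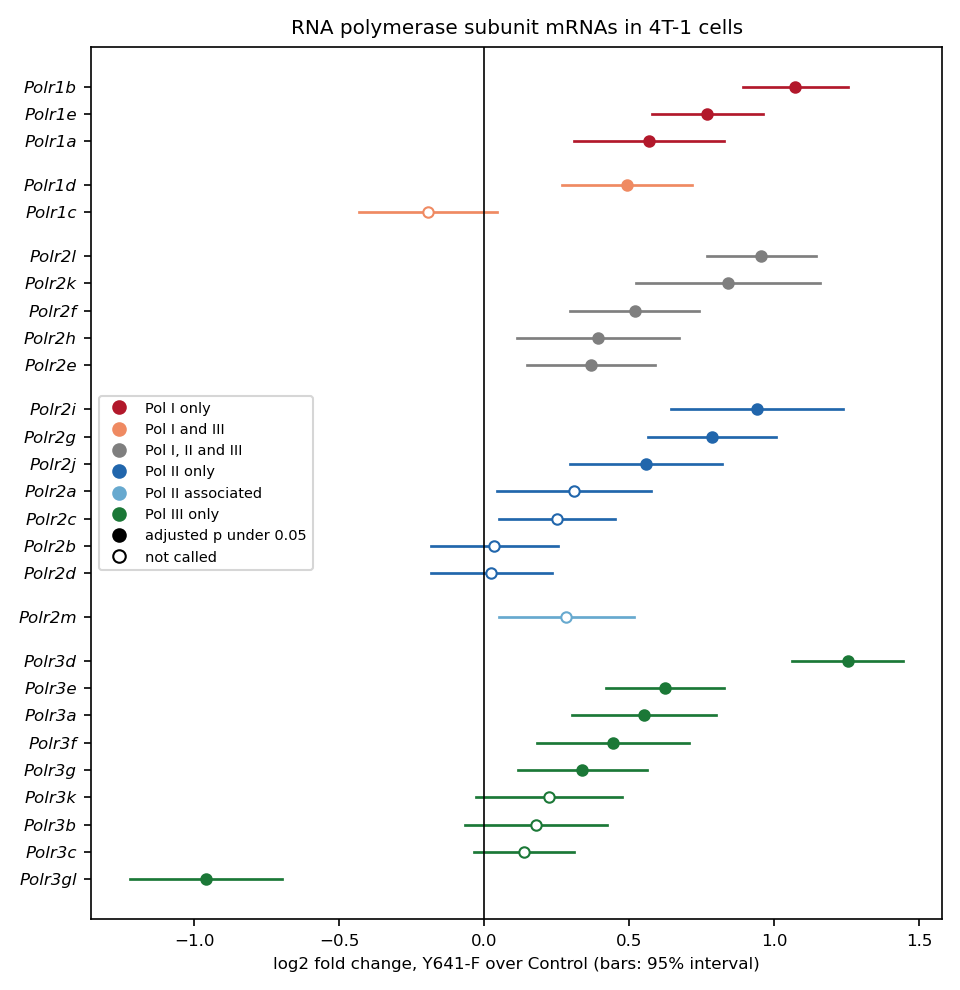
Log2 fold change, Y641-F over Control, of 27 subunit mRNAs (x axis; points are edgeR estimates, bars their 95% intervals, filled points have an adjusted p under 0.05), grouped by the polymerase that contains the subunit. Of the 27 points 25 lie right of 0, Polr3d is the farthest right at 1.25, and Polr3gl is alone far to the left at -0.96.

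All genes called split into 3277 higher and 3374 lower (49.3% higher). With libraries scaled by their totals alone the split was 2408 and 4348 (35.6% higher), the median of all genes moved to -0.11, and 16 subunits were called higher and 2 lower, the second being Polr1c. Under the other scalings, filters and tests 18 to 21 subunits were called higher and 1 lower. Summed over the 28 subunits, the level was 2354, 2115 and 2351 CPM in the Y641-F libraries, against 1647, 1718 and 1820 CPM in the Control libraries, with no overlap.

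Of the 6 subunits that belong to Pol I alone, 5 rose (83.3%) and 1 was not called, with a median log2 fold change of 0.77. Of the protein-coding genes of like counts described above, 26.4% rose. Polr1b, the second-largest catalytic subunit (chr2:128942903-128970214, plus strand, GRCm39), measured 64.4, 64.7 and 62.8 CPM in Y641-F cells, against 30.2, 31.97 and 29.0 CPM in Control cells. Its groups were far apart and each was tight (log2 fold change 1.07, SE 0.0828, adjusted p = 3.17e-06, edgeR). Polr1a, the largest subunit, which carries most of the active site, reached 131, 91.2 and 111 CPM in Y641-F cells, against 77.8, 75.2 and 72.0 CPM in Control cells. Here the Y641-F libraries were spread, Y641-F 1 being the highest and Y641-F 2 the lowest, yet all lay above Control (0.57, SE 0.119, adjusted p = 0.0032). Polr1e, part of a heterodimer that helps Pol I start and elongate, had 34.5, 33.6 and 36.5 CPM in Y641-F cells, against 20.6, 19.95 and 20.8 CPM in Control cells (0.77, adjusted p = 5.18e-05). Its partner Cd3eap, one of the subunits with an older symbol, had 48.0, 45.7 and 47.5 CPM in Y641-F cells, against 24.7, 25.3 and 26.7 CPM in Control cells (0.88, adjusted p = 1.46e-05). Both partners of the heterodimer therefore separated the groups by a similar amount. Twistnb, a stalk subunit of Pol I, rose by 0.78 on the log2 scale (adjusted p = 3.34e-04). Znrd1, the small zinc-ribbon subunit that takes part in RNA cleavage, overlapped between groups, with 10.5, 11.1 and 13.3 CPM in Y641-F cells and 7.997, 8.71 and 11.0 CPM in Control cells (0.34, adjusted p = 0.113). These 5 calls were kept under each alternative tried.

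**Figure D2:**
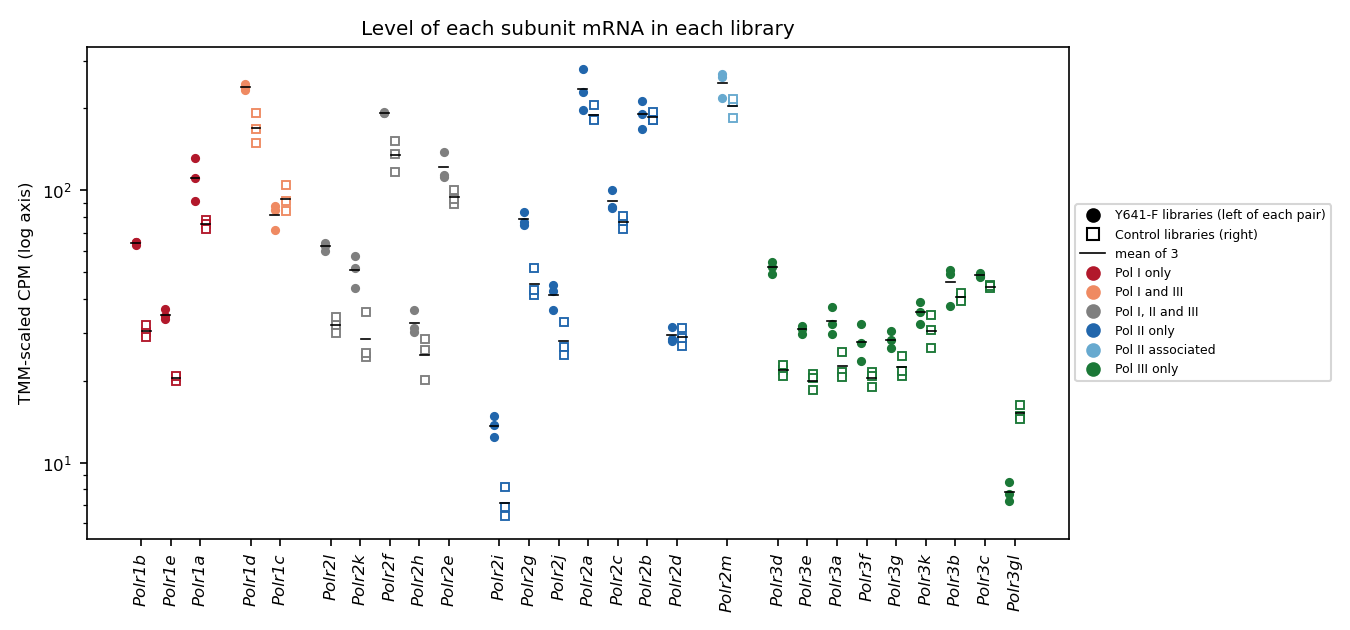
Level of 27 subunit mRNAs in each library, in TMM-scaled CPM on a log axis, with the 3 Y641-F libraries (filled circles) left of the 3 Control libraries (open squares) and a line at each mean. The Pol I subunits Polr1b and Polr1e and the Pol III subunits Polr3d and Polr3e show tight, well separated groups, whereas Polr2b and Polr2d overlap, and Polr3gl is the one gene whose Y641-F libraries all lie below Control.

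Polr1c and Polr1d pair with each other and form the platform on which Pol I and Pol III are assembled. Polr1d measured 238, 234 and 245 CPM in Y641-F cells, against 149, 168 and 192 CPM in Control cells, so the groups did not overlap (log2 fold change 0.49, SE 0.103, adjusted p = 0.00316, edgeR). Polr1c measured 88.0, 71.6 and 85.1 CPM in Y641-F cells, against 83.7, 91.1 and 105 CPM in Control cells, and the groups overlapped (-0.19, 95% interval -0.43 to 0.04, adjusted p = 0.207). With library totals alone Polr1c was called lower (-0.29, adjusted p = 0.0299). The ratio of Polr1c to Polr1d counts was 0.370, 0.306 and 0.347 in Y641-F libraries, against 0.562, 0.542 and 0.546 in Control libraries. That ratio, which needs no scaling between libraries, did not overlap between groups and differed by -0.69 on the log2 scale (two-sided exact permutation p = 0.1, the smallest that 3 against 3 libraries can give). This pair of genes was chosen after their values had been seen.

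All 5 subunits shared by the 3 polymerases rose, against 26.4% of the protein-coding genes of like counts. Polr2l, a small zinc-binding subunit near the assembly platform (chr7:141051772-141055947, minus strand), measured 60.1, 62.6 and 64.0 CPM in Y641-F cells, against 32.1, 30.0 and 34.2 CPM in Control cells (log2 fold change 0.96, SE 0.0863, adjusted p = 9.34e-06, edgeR). Polr2k, also a small zinc-binding subunit, measured 43.7, 57.4 and 51.9 CPM in Y641-F cells, against 24.5, 25.3 and 35.7 CPM in Control cells. Its groups stayed apart although Control 3 stood above the other Control libraries (0.84, adjusted p = 9.53e-04). Polr2f, a subunit at the base of the clamp, had 192, 192 and 195 CPM in Y641-F cells, against 117, 136 and 151 CPM in Control cells (0.52, adjusted p = 0.00211). The Y641-F libraries agreed within a few CPM here, while the Control libraries were spread. Polr2h, an auxiliary subunit bound to the large subunit, rose by 0.39 (adjusted p = 0.0348) and Polr2e, a subunit of the jaw that grips downstream DNA, by 0.37 (adjusted p = 0.0155), and both calls were lost when certain libraries were left out. Without Control 1, Control 2 or Y641-F 3 the adjusted p of Polr2e was 0.0655, 0.0694 or 0.0595. Without Control 1, Control 2, Y641-F 1 or Y641-F 3 that of Polr2h was 0.137, 0.0698, 0.0663 or 0.132, and with library totals alone it was 0.0718.

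Among the 7 subunits of Pol II alone, 3 rose (42.9%) and 4 were not called, with a median log2 fold change of 0.31. Of the protein-coding genes of like counts 26.4% rose, and differences between the polymerase classes were not tested. Polr2g, a stalk subunit, measured 74.8, 76.6 and 83.2 CPM in Y641-F cells, against 41.3, 43.0 and 51.9 CPM in Control cells (0.78, adjusted p = 1.19e-04, edgeR). Its stalk partner Polr2d measured 28.5, 28.1 and 31.4 CPM in Y641-F cells, against 26.8, 28.6 and 31.1 CPM in Control cells. These groups overlapped (0.02, 95% interval -0.18 to 0.23, adjusted p = 0.885), so one partner was called and the other was not, and their difference was not itself tested. Polr2i, a zinc-ribbon subunit involved in start-site choice and fidelity, measured 13.7, 12.4 and 14.8 CPM in Y641-F cells, against 6.35, 6.85 and 8.15 CPM in Control cells (0.94, adjusted p = 2.73e-04). Polr2j measured 36.3, 44.9 and 42.6 CPM in Y641-F cells, against 26.5, 24.8 and 32.7 CPM in Control cells (0.56, adjusted p = 0.00372). Polr2j is bound to Polr2c in the assembly platform of Pol II. Polr2c measured 86.8, 86.0 and 101 CPM in Y641-F cells, against 72.3, 77.2 and 80.2 CPM in Control cells, which did not overlap but missed the threshold (0.25, adjusted p = 0.0551).

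The large catalytic subunits of Pol II were not called. Polr2a, which carries the long C-terminal repeat domain, measured 278, 197 and 230 CPM in Y641-F cells, against 205, 183 and 181 CPM in Control cells, with Y641-F 2 inside the Control range (log2 fold change 0.31, 95% interval 0.04 to 0.57, adjusted p = 0.0735, edgeR). Polr2b, the second-largest subunit, measured 213, 168 and 191 CPM in Y641-F cells, against 182, 194 and 182 CPM in Control cells (0.04, interval -0.18 to 0.25, adjusted p = 0.832). Polr2m, which encodes a protein that binds Pol II and is no core subunit, measured 261, 218 and 268 CPM in Y641-F cells, against 185, 211 and 217 CPM in Control cells (0.28, adjusted p = 0.0610). Its groups were next to each other without overlapping. Polr2a, Polr2c and Polr2m stood near the threshold: without Y641-F 2 all 3 were called, with adjusted p of 0.00436, 0.0188 and 0.00541, and with DESeq2's Wald test they were too, with adjusted p of 0.0318, 0.0388 and 0.0259.

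Pol III had the widest range among its own 10 subunits, 6 of which rose, 1 fell and 3 were not called. Its share that rose was 60%, against 26.4% of the protein-coding genes of like counts. Polr3d, part of a heterodimer that aids initiation and termination (chr14:70674292-70680911, minus strand), measured 52.5, 54.4 and 49.5 CPM in Y641-F cells, against 21.8, 20.8 and 22.9 CPM in Control cells. This was the largest rise of the 28, with wide separation of the groups (log2 fold change 1.25, SE 0.0880, 2.38-fold, adjusted p = 1.51e-06, edgeR). Its partner Polr3e measured 31.8, 31.0 and 29.7 CPM in Y641-F cells, against 21.1, 18.5 and 20.4 CPM in Control cells (0.62, adjusted p = 3.48e-04). Both partners of this heterodimer separated the groups completely. Crcp, a stalk subunit of Pol III, had 45.4, 38.7 and 48.4 CPM in Y641-F cells, against 28.5, 32.5 and 37.2 CPM in Control cells (0.43, adjusted p = 0.0138). The Crcp groups nearly touched, and its adjusted p was 0.0631, 0.0514, 0.0510 or 0.0594 without Control 1, Control 2, Y641-F 1 or Y641-F 3.

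Of the catalytic pair of Pol III only the largest subunit was called. Polr3a measured 37.2, 32.3 and 29.7 CPM in Y641-F cells, against 25.4, 21.6 and 20.7 CPM in Control cells (log2 fold change 0.55, adjusted p = 0.00306, edgeR). Polr3b measured 50.8, 37.6 and 49.3 CPM in Y641-F cells, against 40.5, 42.0 and 39.2 CPM in Control cells. In this gene Y641-F 2 lay below every Control library (0.18, adjusted p = 0.265), and without that library Polr3b was called higher (0.30, adjusted p = 0.00873). Polr3c, Polr3f and Polr3g or its paralog Polr3gl form a trimer that takes part in promoter opening. Polr3f rose by 0.44 (adjusted p = 0.0141), but its adjusted p was 0.0714 without Control 2 and 0.0613 without Y641-F 3. Polr3c measured 48.4, 48.1 and 49.9 CPM in Y641-F cells, against 44.8, 43.8 and 44.4 CPM in Control cells, a narrow but complete separation that was not called (0.14, adjusted p = 0.216). Polr3k, the zinc-ribbon subunit needed for termination, had 35.9, 32.2 and 38.8 CPM in Y641-F cells and 26.3, 30.6 and 34.8 CPM in Control cells, with overlap (0.22, adjusted p = 0.174).

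Polr3g and Polr3gl encode alternative versions of the same Pol III subunit, and a Pol III complex holds one or the other. In mammals Polr3g is known to be abundant in pluripotent and many tumor cells, and Polr3gl is the form of most differentiated tissues. Polr3gl (chr3:96485188-96505679, minus strand) measured 7.24, 8.49 and 7.65 CPM in Y641-F cells, against 14.8, 14.4 and 16.3 CPM in Control cells, with the groups far apart (log2 fold change -0.96, SE 0.1203, 0.514-fold, adjusted p = 9.84e-05, edgeR). Polr3g (chr13:81820942-81860118, minus strand) measured 28.1, 26.3 and 30.5 CPM in Y641-F cells, against 20.9, 21.6 and 24.7 CPM in Control cells. These groups were apart by little (0.34, SE 0.102, adjusted p = 0.0248), and the adjusted p was 0.102, 0.105, 0.0587 or 0.0875 without Control 1, Control 2, Y641-F 1 or Y641-F 3, and 0.0695 with library totals alone. The ratio of Polr3g to Polr3gl counts, which does not depend on scaling, was 3.89, 3.10 and 3.98 in Y641-F libraries, against 1.41, 1.501 and 1.52 in Control libraries. On the log2 scale it averaged 1.86 ± 0.199 in Y641-F and 0.56 ± 0.0566 in Control libraries (SD, n = 3 each), a difference of 1.301 (two-sided exact permutation p = 0.1, the smallest possible with 3 against 3). Per kilobase of transcript, Polr3g stood at 6.42 ± 0.472 CPM in Y641-F cells and 5.08 ± 0.461 CPM in Control cells, and Polr3gl at 5.46 ± 0.447 CPM in Y641-F cells and 10.6 ± 0.701 CPM in Control cells. On this length-scaled level Polr3gl was the higher of the pair in Control cells. In Y641-F cells the mean of Polr3g was the higher, but in Y641-F 2 the genes were level (5.97 against 5.95). This order rests on 1 reference transcript per gene, of 4408 bases for Polr3g and 1427 bases for Polr3gl. The coding lengths are 669 and 654 bases, and in counts not scaled by length Polr3g exceeded Polr3gl in every library.

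**Figure D3:**
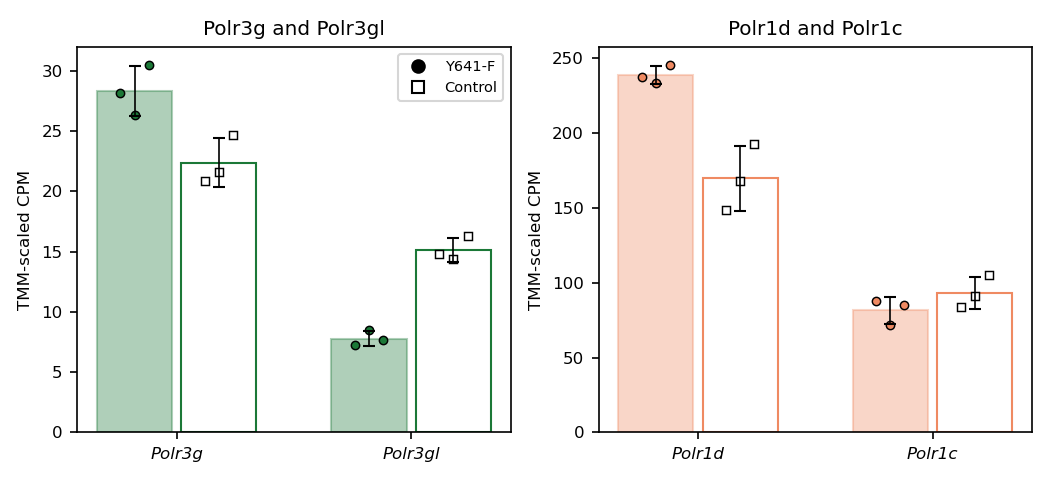
TMM-scaled CPM of Polr3g and Polr3gl (left panel) and of Polr1d and Polr1c (right panel), with bars at the mean, error bars of 1 SD, and a point for each of the 3 Y641-F (filled, left) and 3 Control (open, right) libraries. Polr3gl lies between 7.24 and 8.49 CPM in Y641-F cells, against 14.4 to 16.3 CPM in Control cells, while Polr3g is higher in Y641-F cells, and Polr1d separates the groups where Polr1c overlaps.

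The upstream regions of this pair are shown because its members moved in opposite directions. Each run is the 250 bases before the transcript start, 5′ to 3′ on the gene's strand, from RefSeq's GRCm38.p6 table and found once in GRCm39 (chr13:81859133-81859382 for Polr3g and chr3:96501498-96501747 for Polr3gl, minus strand). For both genes, and for Polr2l, the RefSeq start lies inside the wider GENCODE gene span, and which start the cells used was not measured. Capitals mark the letters GGGCGG or their reverse complement CCGCCC (a GC box, to which SP1-type factors bind) and CACGTG (an E-box, to which MYC and related factors bind).
Polr3g: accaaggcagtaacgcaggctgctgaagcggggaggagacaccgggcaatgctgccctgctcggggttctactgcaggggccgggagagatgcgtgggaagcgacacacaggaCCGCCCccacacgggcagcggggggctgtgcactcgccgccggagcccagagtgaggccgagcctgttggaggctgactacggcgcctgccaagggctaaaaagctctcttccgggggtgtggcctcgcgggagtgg
Polr3gl: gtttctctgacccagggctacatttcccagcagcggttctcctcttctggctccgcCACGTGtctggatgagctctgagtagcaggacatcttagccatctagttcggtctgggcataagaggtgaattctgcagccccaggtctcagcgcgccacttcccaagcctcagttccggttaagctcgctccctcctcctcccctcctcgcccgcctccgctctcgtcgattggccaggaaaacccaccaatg
The Polr3g window held 1 GC box and no E-box, and the Polr3gl window held 1 E-box, 194 bases before the start, and no GC box. A match of letters is a description and says nothing of binding.

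Windows before the 2 called members with the smallest adjusted p among Pol I and shared subunits, Polr1b (chr2:128942666-128942915, plus strand) and Polr2l (chr7:141055067-141055316, minus strand), are printed with the same marks.
Polr1b: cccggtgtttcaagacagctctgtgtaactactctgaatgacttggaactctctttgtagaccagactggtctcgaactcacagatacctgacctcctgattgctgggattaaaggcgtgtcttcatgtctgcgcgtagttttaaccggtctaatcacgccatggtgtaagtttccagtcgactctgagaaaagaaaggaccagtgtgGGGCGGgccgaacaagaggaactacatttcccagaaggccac
Polr2l: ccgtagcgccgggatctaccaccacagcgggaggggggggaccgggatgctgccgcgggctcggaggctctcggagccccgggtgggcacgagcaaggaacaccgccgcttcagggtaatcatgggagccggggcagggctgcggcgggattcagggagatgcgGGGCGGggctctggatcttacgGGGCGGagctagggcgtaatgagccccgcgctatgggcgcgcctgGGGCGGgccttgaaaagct
Polr1b held 1 GC box and Polr2l held 3. The RefSeq table had windows for 22 of the 28 subunits. GC boxes (GGGCGG on either strand, each motif counted on its own) stood in 14 of the 22 (63.6%), against 8008 of 17491 genes with a window of the same length (45.8%). E-boxes (CACGTG) stood in 2 of the 22 (9.09%), Polr3c and Polr3gl, against 1331 genes (7.61%). The core of the NRF1 motif (CGCATGCG) stood in 2 of the 22 (9.09%), Polr2b and Polr2j, against 406 genes (2.32%). The 17491 are all protein-coding genes with a window, whether expressed in these cells or not. The shares were not compared with genes of like counts.

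Compared per kilobase of transcript, most subunits of Pol II lay above those that belong to Pol I or Pol III alone, with some overlap of the ranges. Subunits of Pol II alone had a median length-scaled level of 30.7 CPM per kilobase in Y641-F cells and 27.0 in Control cells, whereas those of Pol III alone had 8.24 in Y641-F cells and 6.85 in Control cells. The 3 Pol I subunits with Polr1 symbols had a median of 11.7 CPM per kilobase in Y641-F cells and 6.85 in Control cells. The shared subunits ranged most widely, with Polr2e at 102 CPM per kilobase in Y641-F cells and 79.2 in Control cells and Polr2h at 7.94 in Y641-F cells and 6.05 in Control cells. Polr1d was the highest in Y641-F cells at 116 CPM per kilobase and Polr2m in Control cells at 91.3. In both groups the gap between Polr1d and Polr2m was smaller than the larger of their SDs. The lengths are those of 1 reference transcript per gene, and which isoforms the cells used was not measured.

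**Figure D4:**
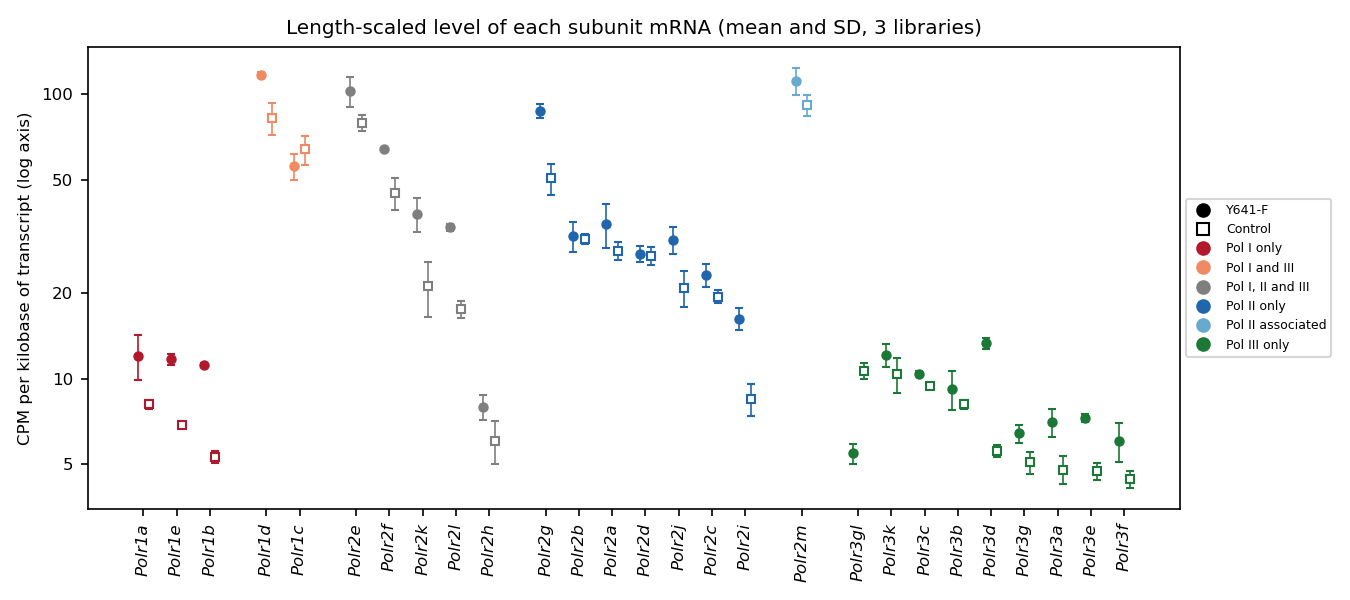
Mean CPM per kilobase of reference transcript (log axis) for 27 subunits, with error bars of 1 SD over 3 libraries, Y641-F (filled) left of Control (open) and genes ordered within each class by their Control level. Subunits of Pol II alone lie between 16.2 and 87.1 in Y641-F cells and between 8.47 and 50.6 in Control cells, and those of Pol III alone that are drawn between 5.46 and 13.3 in Y641-F cells and between 4.43 and 10.6 in Control cells.

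Coding length also ran with the change. Among the protein-coding genes with a known coding length and a mean count at least that of the lowest subunit, 44.0% of those with a coding length under 600 bases were called higher in Y641-F cells, against 11.6% of those with 3000 bases or more. Many subunits are small, so the 28 were also read against genes of like coding length. Under 600 bases 8 of 10 subunits rose (median log2 fold change 0.54 against 0.26 for all genes of that class), and from 600 to under 1500 bases 6 of 10 rose and 1 fell (0.35 against 0.08, with 30.3% of the class called higher). From 1500 to under 3000 bases Polr3e rose and Polr3c was not called (0.38 against -0.03, with 21.3% of the class called higher). Of the 6 subunits with 3000 bases or more, Polr1a, Polr1b and Polr3a rose and Polr2a, Polr2b and Polr3b were not called (0.43 against -0.15). The part that transcript length or RNA quality has in these values was not tested.

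**Figure D5:**
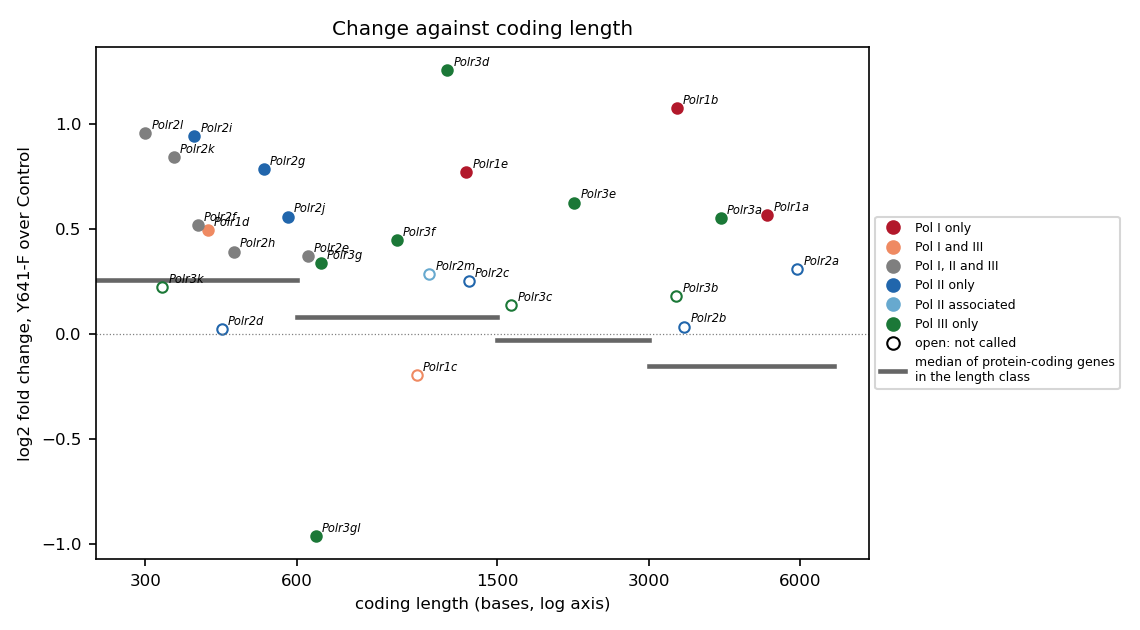
Log2 fold change of 27 subunits, Y641-F over Control (y axis), against coding length in bases (log x axis), with filled points for adjusted p under 0.05. Thick lines give the median of protein-coding genes in each of 4 length classes, which declines from 0.26 to -0.15, and most subunits lie above the line of their class.

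Replicates of the Y641-F group did not contribute equally. Y641-F 2 was the lowest of its group for 19 of the 28 subunits, with a median of 1.22 times the Control mean, whereas Y641-F 1 and Y641-F 3 had medians of 1.37 and 1.45. Y641-F 3 was the highest of its group for 15 subunits, while of the 6 subunits with 3000 bases or more Polr1a, Polr2a, Polr2b, Polr3a and Polr3b were highest in Y641-F 1 and Polr1b in Y641-F 2. Without Y641-F 2, 22 subunits were called higher, and without Control 2 or Y641-F 3, 14 were. Mitochondrially encoded genes took 2.07%, 3.52% and 2.92% of counts in Y641-F libraries, against 1.64%, 1.42% and 2.23% in Control libraries, and leaving these genes out kept 18 subunits higher and 1 lower.

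Many subunit genes lie close to a neighbor on the other strand. In the GENCODE annotation of GRCm39, 23 of the 28 shared exonic bases with a gene of the opposite strand and none with another gene of the same strand. As the sources used here do not say whether strand was used in counting, reads of such pairs may not be separable. More than 25% of exonic bases were shared in 5 subunits. For Polr2l (57.9%) the neighbor Tspan4 was higher in Y641-F cells (log2 fold change 0.71, adjusted p = 9.39e-05, edgeR), while Cd151 was at 0.01 (adjusted p = 0.969). For Polr2c (57.7%) the neighbor Dok4 was lower (-0.40, adjusted p = 0.00655). For Polr2j (40.5%) and Polr2i (29.5%) the neighbors Lrwd1 and Tbcb were not called (-0.08 and 0.20). For Polr3gl (30.8%) the neighbors Ankrd34a and Gm16253 were not among the genes tested. Among the subunits outside the 28, Cd3eap shared 28.6% of its exonic bases with Ercc1 and Ppp1r13l, and Twistnb, Znrd1 and Crcp shared none. Ppp1r13l was lower in Y641-F cells (-0.55, adjusted p = 6.36e-04), and Ercc1 was not called (0.26, adjusted p = 0.0705). The neighbors' part in the subunits' values was not tested.

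Most Pol I factors were higher in Y641-F cells. Of 7 Pol I initiation and termination factors 5 rose, 1 fell (Ttf1) and 1 was not called, with a median log2 fold change of 0.66. The share that rose was 71.4%, against 26.4% of the protein-coding genes of like counts. Taf1a, a subunit of the promoter selectivity complex SL1, measured 18.7, 22.8 and 16.7 CPM in Y641-F cells, against 9.67, 10.5 and 9.96 CPM in Control cells (0.95, adjusted p = 1.80e-04, edgeR). Rrn3, the factor that makes Pol I competent to initiate, measured 128, 106 and 124 CPM in Y641-F cells, against 67.1, 77.1 and 64.3 CPM in Control cells (0.78, adjusted p = 1.48e-04). Both genes separated the groups completely. Taf1d (0.91) and Taf1c (0.66), further SL1 subunits, rose too. Taf1b, of the same complex, was the 1 factor not called, and its groups overlapped (0.05, adjusted p = 0.829). Ubtf, which binds along ribosomal DNA, was called at 0.34 (adjusted p = 0.0240), but its adjusted p was 0.0928, 0.0562 or 0.0967 without Control 1, Control 2 or Y641-F 1, and 0.0559 with library totals alone.

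Among 17 Pol III initiation factors and regulators 5 rose, 2 fell and 10 were not called (median log2 fold change 0.14), the share that rose (29.4%) being near that of the protein-coding genes of like counts (26.4%). The list as drawn up also held the subunit Crcp, and with it 6 of 18 rose (median 0.17). Maf1, the conserved repressor of Pol III, measured 43.5, 42.5 and 45.7 CPM in Y641-F cells, against 52.6, 58.5 and 65.7 CPM in Control cells. The groups did not overlap (-0.43, SE 0.0962, adjusted p = 0.00513, edgeR). Gtf3a, the factor specific to 5S ribosomal RNA genes, rose by 0.60 (adjusted p = 0.00121) and Gtf3c6, a subunit of TFIIIC, by 0.74 (adjusted p = 2.70e-04). The other TFIIIC subunits, Gtf3c1 (-0.26), Gtf3c2 (0.21), Gtf3c3 (0.07), Gtf3c4 (0.003) and Gtf3c5 (-0.19), were not called. Snapc5 and Snapc4, subunits of the complex used by small nuclear RNA promoters, had log2 fold changes of 0.75 and 0.63. The call of Snapc4 was lost without Control 2 (adjusted p = 0.0573) or Control 3 (adjusted p = 0.0578). Of the same complex, Snapc2 was called lower (-0.46, adjusted p = 0.00397), and Snapc1 (0.22) and Snapc3 (-0.13) were not called. Brf1, a TFIIIB subunit, measured 59.3, 59.9 and 53.3 CPM in Y641-F cells and 52.6, 52.4 and 52.2 CPM in Control cells and was not called (0.14, adjusted p = 0.251). Tbp, the TATA-binding protein used by all 3 enzymes, overlapped between groups (0.13, adjusted p = 0.339).

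The median changes of the Pol II factor lists were small, and differences between lists were not tested. Of 18 general initiation factors 8 rose, 1 fell and 9 were not called (median log2 fold change 0.19). The share that rose was 44.4%, against 26.4% of the protein-coding genes of like counts. The largest rises were in Gtf2e1 of TFIIE (0.74) and Gtf2h1, Cdk7 and Gtf2h2 of TFIIH (0.62, 0.59 and 0.59). Gtf2e2, the other TFIIE subunit, was the 1 that fell (-0.34, adjusted p = 0.0198, edgeR). In TFIIH, Gtf2h3 and Gtf2h5 were also called higher, and Gtf2h4, Ercc2, Ercc3, Ccnh and Mnat1 were not called. Of 22 pausing, elongation and C-terminal domain factors 6 rose, 2 fell and 14 were not called (median 0.11), the share that rose (27.3%) being near that of the protein-coding genes above (26.4%). Ccnt2, a cyclin of P-TEFb, was at 0.48 (adjusted p = 0.00313, edgeR), while Ccnt1 (0.18) and Cdk9 (-0.17) of P-TEFb were not called. Nelfb, a subunit of the pausing factor NELF, fell by 0.41 (adjusted p = 0.00313). Nelfcd, also of NELF, was the other gene that fell (-0.31, adjusted p = 0.0130), and Nelfa (0.04) and Nelfe (-0.18) were not called. Supt4a and Tcea1, both elongation factors, were called at 0.49 and 0.47 with all libraries. Without Control 1, Control 2, Y641-F 1 or Y641-F 3 the adjusted p of Supt4a was 0.0932, 0.0788, 0.0521 or 0.0973 and that of Tcea1 was 0.107, 0.0619, 0.0681 or 0.117. Over this list 4 to 11 genes were called when 1 library was left out, with 4 without Control 2 or Y641-F 1 and 5 without Control 1 or Y641-F 3.

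Assembly factors help build and import the polymerases. Of 15 tested 7 rose, 1 fell and 7 were not called (median log2 fold change 0.29). The share that rose was 46.7%, against 26.4% of the protein-coding genes of like counts. Gpn1, a GTPase needed for nuclear import of Pol II, measured 42.9, 42.7 and 45.9 CPM in Y641-F cells, against 25.1, 23.4 and 23.3 CPM in Control cells (0.87, adjusted p = 1.84e-05, edgeR). Slc7a6os, the mouse counterpart of the yeast import factor Iwr1, rose by 0.77, and Uxt and Pfdn2, prefoldin-type chaperones, by 0.60 and 0.48. Rpap1 was the 1 assembly factor that fell (-0.39, adjusted p = 0.00517), and Pfdn6 (0.28), Uri1 (-0.29) and Pih1d1 (-0.25) were among those not called. Among 7 genes of mitochondrial transcription 3 rose (42.9%), 1 fell and 3 were not called. The mitochondrial RNA polymerase itself, Polrmt, is a single-chain enzyme unrelated to the other 3 and was not called (0.24, adjusted p = 0.0910). Tfb2m, its initiation factor, rose by 0.71 and Tefm by 0.51. Of the mitochondrial termination factor family, Mterf2 fell by 0.88, Mterf3 rose by 0.56 and Mterf1a was not called (0.01).

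Myc measured 308, 289 and 296 CPM in Y641-F cells, against 171, 178 and 171 CPM in Control cells (log2 fold change 0.78, SE 0.0846, adjusted p = 3.55e-05, edgeR). The groups were far apart. Its relative Mycl measured 6.14, 3.45 and 5.55 CPM in Y641-F cells, against 12.1, 14.2 and 11.9 CPM in Control cells (-1.34, adjusted p = 2.47e-04), and Mycn did not pass the filter on low counts. Any link between MYC genes and the polymerase subunits was not tested.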

How the data were processed

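RNA of 6 cultures of 4T-1 cells (3 Y641-F, 3 Control) was extracted with TRIzol and made into NEBNext Ultra II libraries. Per the labels and processing notes, the authors used fastp 0.20.1, STAR 2 with GRCm39, featureCounts 2.0.1 and bcl2fastq 2.19.0.316, beside quality reports. The deposited values are raw read counts per gene, not normalized. The annotation release and any use of strand: not given in the sources used here. Total counts were 32509268 to 36429035 per library, and intervals cover the spread between libraries.

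Genes with at least 0.1 CPM in 3 libraries were kept (21043). Counts were fitted with edgeR 4.0.16 in R 4.3.3 (TMM factors, quasi-likelihood test, no block, SE from the fold change and F), and p-values were adjusted by Benjamini-Hochberg over all genes tested. Calls have an adjusted p under 0.05. Ratios of genes were tested by a two-sided exact permutation test over libraries. Alternatives were other scalings and filters, limma-voom (3.58.1), DESeq2 (1.42.0), protein-coding genes alone, no mitochondrially encoded genes, a replicate block and leaving out each library. Gene positions, lengths and sequences were read with Python 3.11.15 from the GENCODE annotation of GRCm39 and the RefSeq tables.

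Values of 1 subunit are not reported here, though counts, sums and medians include it, and every other subunit is named. Of each factor list, up to 4 called genes of largest absolute fold change are named, with Myc, Maf1, Crcp, Polrmt, Ubtf, Rrn3, Tbp, Brf1 and Ezh2. Neighbors on the other strand are named for their overlap. Named outside this rule are Ttf1, Taf1b, Mterf1a, Rpap1, Pfdn6, Uri1 and Pih1d1. So are other subunits of TFIIE, TFIIH, TFIIIC, P-TEFb and NELF, other Snapc genes, and the markers Krt14, Cldn7 and Pdgfra. The subunits and lists were chosen with earlier results of these data known.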

Additional observations from a re-analysis of the deposited data

How the results depend on the processing

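15 of the 19 called subunits kept their call under all 16 alternatives, no called subunit changed direction, and the limits are these. Groups of 3 libraries, an unstated strand setting and a possible difference in selection drug bound what the values show. Of the 7 subunits of Pol II alone 5, not 3, were called with at least 1 CPM in 3 libraries and with DESeq2. When classes followed gene symbols, 8 of 13 genes with Polr2 symbols were called, a different set that adds Polr2m and the 5 shared subunits. Polr2m was called (1 of 1) with no filter, with at least 1 CPM, with DESeq2 and with protein-coding genes alone. Both Polr1c and Polr1d (2 of 2) were called with library totals only. The sign of Polr2d turned with upper-quartile factors (-0.0033) and library totals (-0.072) and ranged from -0.035 (without Control 1) to 0.070 over libraries left out. That of Polr2b turned with library totals (-0.065) and ranged from -0.050 (without Y641-F 1) to 0.12. That of Ezh2 turned with library totals (-0.043) and ranged from -0.022 (without Control 1) to 0.13. None of these was called, and the cause was not tested.

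With 1 library left out, 4731 to 7328 genes were called, and 15 to 23 subunits. Calls ran from 3 to 5 for the 7 subunits of Pol II alone and from 0 to 1 for Polr2m. They ran from 3 to 5 for the subunits shared by all 3 enzymes (3 without Control 1, Control 2 or Y641-F 3). For pausing and elongation factors they ran from 4 to 11. The log2 ratio of Polr3g to Polr3gl differed by 1.24 to 1.42. With the replicate block 6393 genes were called instead of 6651, with 19 subunits higher, Polr2a being added (adjusted p = 0.0446), and 1 lower. Deviations of same-numbered libraries from their group means correlated at -0.13, -0.22 and 0.34 over 12600 genes, so the numbers were not read as pairs, and only Y641-F 3 correlated best with its own number.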
